A study of Mus musculus with 8 samples.

Results

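DNA methylation in mouse liver was followed over 36 genes that make or move lipids and cholesterol. The genes were listed by symbol and fall into 5 groups by role: sterol synthesis, fatty acid synthesis, triglyceride synthesis, regulators, and transport. The CGs (a cytosine followed by a guanine) of a gene were those in its body or within 5 kb of either end, in mouse genome build mm9 with GENCODE M1 gene models. Of the 36 genes, 35 were in the annotation, and Hmgcs1 (HMG-CoA synthase) was not. A CG with at least 10 reads in each of the 8 mice was found in 32 genes, giving 331 of the 176951 such CGs in the whole series. Idi1, Fdft1 and Gpam had none at that depth.

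Livers came from C57BL/6J (B6) and DBA/2J (DBA) inbred mice and from the F1 of both crosses, named mother first: BXD (B6 mother) and DXB (DBA mother). Each of the 4 groups held 1 female and 1 male, 16 weeks old and fasted for 16 h overnight, with no treatment. A strain within 1 sex therefore rested on 1 mouse, and p-values came from models over all 8. Reduced representation bisulfite sequencing (RRBS) reads DNA cut by MspI at CCGG, and gives for each cytosine the percent of reads in which it was methylated. Between 527351 and 1227747 CGs per mouse had 10 reads, with means of 51.6 to 96.3 reads at those CGs. In the library labelled B6 male, 83.9% of the reads that could be sorted by strain on the autosomes carried the B6 allele, against 99.7% in the B6 female, so results that rest on this library are given with its values beside them. Bulk liver mixes cell types, so that a change in the share of a cell type and a change of methylation within cells cannot be told apart.

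Hepatocytes are the main site of sterol and fatty acid synthesis in the body. The SREBP proteins, encoded by Srebf1 and Srebf2, are held in the endoplasmic reticulum with Scap and the Insig proteins while sterols are plentiful. When sterols are low they are cut and enter the nucleus, where SREBP2 drives mainly sterol genes and SREBP1 mainly fatty acid genes. Fasting lowers the fatty acid arm and feeding raises it. Promoters with many CGs are usually unmethylated, whereas gene bodies are usually methylated.

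The promoter fragments of Srebf1, the SREBP1 gene, and Fads1, the delta-5 desaturase, are shown because each holds measured CGs inside and outside the MspI site, and the level of promoters turned on that difference. The sequences are mm9, plus strand, with the CGs measured in all 8 mice in capitals. Of the capital CGs, the one within ccgg is the MspI site.

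Srebf1 chr11:60036395-60036459: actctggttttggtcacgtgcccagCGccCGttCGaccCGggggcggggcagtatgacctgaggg
Fads1 chr19:10257270-10257342: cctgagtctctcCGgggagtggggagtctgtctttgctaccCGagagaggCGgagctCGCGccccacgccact

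The CGs shown next are, save that of Abcg8, those at which the female parents differed by the binomial rule given further on. They lay in introns, exons or flanks, and the nearest to a gene's 5′ end was that of Lpin1, at 1034 bases upstream. Capitals mark the CG that was called, and in Srebf2 and Fasn also the neighbours that differed by more than 30 points.

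Lpin1 chr12:16597569-16597650: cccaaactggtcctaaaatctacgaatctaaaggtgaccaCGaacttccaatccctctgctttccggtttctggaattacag
Lipc chr9:70674752-70674833: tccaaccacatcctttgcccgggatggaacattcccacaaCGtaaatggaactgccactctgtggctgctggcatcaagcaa
Acacb chr5:114676732-114676813: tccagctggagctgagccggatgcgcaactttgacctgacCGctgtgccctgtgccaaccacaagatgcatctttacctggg
Dgat2 chr7:106304300-106304381: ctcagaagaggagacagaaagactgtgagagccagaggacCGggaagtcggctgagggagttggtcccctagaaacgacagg
Srebf2 chr15:82030169-82030316: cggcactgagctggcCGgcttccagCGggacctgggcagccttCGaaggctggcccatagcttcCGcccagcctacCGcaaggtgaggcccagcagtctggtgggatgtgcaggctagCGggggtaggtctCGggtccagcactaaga
Fasn chr11:120681569-120681639: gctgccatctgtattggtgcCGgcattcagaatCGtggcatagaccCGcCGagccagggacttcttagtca
Idi1 chr13:8895386-8895467: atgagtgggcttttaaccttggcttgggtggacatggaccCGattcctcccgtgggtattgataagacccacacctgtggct

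The pathway genes were low in methylation around their starts and high within their bodies. Over the 8 mice the 133 CGs within 1 kb of the 5′ end of a gene, in 20 genes, averaged 6.74 ± 1.36% (SD, n = 8). The 163 body CGs, in 26 genes, averaged 64.9 ± 0.941%, and the 36 CGs in the 5 kb flanks of 6 genes averaged 21.4 ± 2.81%. Of the 331 CGs, 170 were below 20%, 88 were above 80% and 73 lay between. Across genes with at least 3 CGs in a promoter or body, the median promoter was 5.20% over 17 member genes and 3.76% over 7052 genes of the series. The median body was 71.5% over 16 member genes and 76.0% over 6414 genes. Median SD over the 8 mice was 3.84 points per member CG and 3.5 per CG of the series.

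**Figure D1:**
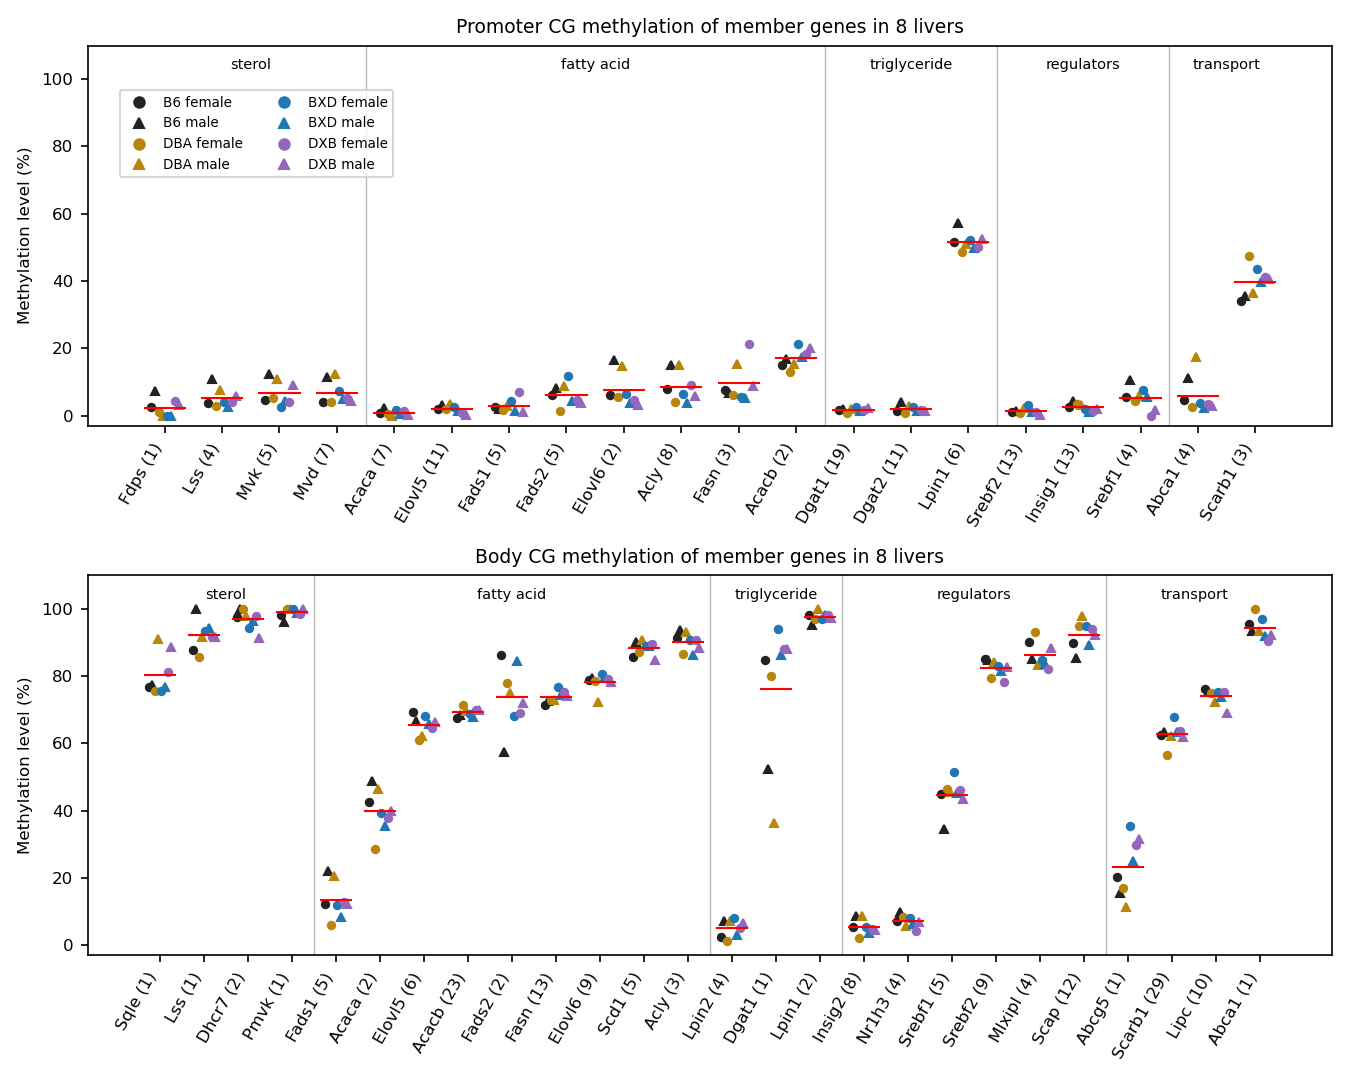
Mean methylation (percent, vertical axis) of each gene's promoter (upper panel) and body (lower panel), genes grouped by role with the number of CGs in brackets, a point for each of the 8 mice and a red line for their mean. Promoters sit at 9.58% or less except those of Acacb, Scarb1 and Lpin1, whereas bodies run from 5.06% in Lpin2 to 98.9% in Pmvk.

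The sterol synthesis genes had the highest bodies of the 5 groups, at 93.0 ± 1.49% over 5 CGs of 4 genes with 10 reads in all 8 mice. At 5 reads their lead over fatty acid genes was 2.13 ± 3.19 points (SD). Phosphomevalonate kinase (Pmvk) was the highest at 98.9 ± 1.4% and squalene epoxidase (Sqle) the lowest at 80.3 ± 6.2%, each from 1 CG. Dhcr7, the enzyme of the last step to cholesterol, stood at 96.9 ± 2.9% over 2 CGs. Lanosterol synthase (Lss) stood at 92.0 ± 4.3%. Promoters of the group averaged 6.06 ± 2.95% over 17 CGs in 4 genes. Mevalonate diphosphate decarboxylase (Mvd) had the highest of them, at 6.68 ± 3.38% over 7 CGs. Mevalonate kinase (Mvk) stood at 6.63 ± 3.61% over 5 CGs, with 12.3% in the B6 male, 10.9% in the DBA male and 2.50 to 9.17% in the others.

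Fatty acid genes had promoters at 5.04 ± 1.81% over 43 CGs of 8 genes and bodies at 68.4 ± 0.532% over 68 CGs of 9 genes. At 10 reads in all 8 mice, bodies ran from 13.3 ± 5.5% in Fads1 (5 CGs) to 90.1 ± 2.8% in Acly (3 CGs). Acly is ATP citrate lyase, which makes cytosolic acetyl-CoA. With 10 reads in the female parents alone, other genes were at the ends. The Acly body was then 75.3% in the B6 female and 68.6% in the DBA female (30 CGs), and that of Fads1 35.5% and 32.2% (22 CGs). Acaca was lowest at 27.4% and 27.5%, and Scd1 highest at 85.4% and 88.7%. Fatty acid synthase (Fasn) stood at 73.8 ± 1.8% over 13 body CGs, with a range of 71.3 to 76.8% over the mice. Its 3 promoter CGs averaged 9.58 ± 5.70%, with 21.2% in the DXB female, 15.4% in the DBA male and 5.36 to 8.77% in the other 6 mice. Over the 30 Fasn promoter CGs with 10 reads in both female parents, the mean was 1.29% in the B6 female and 1.08% in the DBA female. Stearoyl-CoA desaturase 1 (Scd1), which makes oleate, had 5 body CGs at 88.2 ± 2.1% and no promoter CG at 10 reads in all 8 mice. The acetyl-CoA carboxylases, which make malonyl-CoA, differed in their promoters. Acaca stood at 0.877 ± 0.765% over 7 CGs and Acacb at 17.1 ± 2.8% over 2. Both sets belong to 5′ ends in GENCODE M1, and lie away from the starts that RefSeq gives, by 65.7 to 65.8 kb in Acaca and 18.8 kb in Acacb. With RefSeq starts neither gene had a promoter CG at 10 reads in all 8 mice. The elongase Elovl5 stood at 1.89 ± 1.11% in the promoter and 65.4 ± 2.9% in the body.

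Fads1 and Fads2, the neighbouring desaturases that make polyunsaturated fatty acids, had promoters at 2.85 ± 1.95% and 6.15 ± 3.36%. Their bodies stood at 13.3 ± 5.5% over 5 CGs and 73.7 ± 9.4% over 2. In Fads1 the body level was 22% in the B6 male and 20.5% in the DBA male, 5.85% in the DBA female, and 8.36 to 12.9% in the other 5 mice. The 2 highest mice were thus the male parents, 1 of each strain, when CGs in the MspI site were included. Over the 2 body CGs outside such sites the B6 male had 7.45% and the DBA male 3.05%, within a range of 0 to 7.5% over the mice.

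Among the triglyceride genes, the diacylglycerol acyltransferases Dgat1 and Dgat2 had promoters at 1.77 ± 0.567% over 19 CGs and 1.94 ± 1.0% over 11. Lpin1, a phosphatidate phosphatase, had the highest promoter of all members at 10 reads in all 8 mice, at 51.6 ± 2.7% over 6 CGs. That mean joins unlike CGs: 3 that lie 72 to 119 bases into the gene averaged 7.65 ± 5.97%, and 3 that lie 646 to 849 bases upstream averaged 95.6 ± 1.26%. Its body stood at 97.6 ± 1.4%. Lpin2, of the same enzyme family, had 4 body CGs at 5.06 ± 2.55%.

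Of the regulators, Srebf2 had 13 promoter CGs at 1.35 ± 0.886% and 9 body CGs at 82.4 ± 2.5%. Srebf1 had 4 promoter CGs at 5.11 ± 3.27%, the highest promoter of the group, and 5 body CGs at 44.7 ± 4.7%. The Srebf1 body was 34.6% in the B6 male, 51.4% in the BXD female and 43.5 to 46.4% in the other 6 mice. With 10 reads in the female parents alone, its 52 body CGs averaged 26.9% in the B6 female and 26.8% in the DBA female. The promoter of Insig1 stood at 2.40 ± 1.11% over 13 CGs. At 10 reads in all 8 mice, Scap, the escort protein of the SREBPs, had the highest body, 92.2 ± 4.0% over 12 CGs. Insig2 had the lowest, at 5.33 ± 2.31% over 8 CGs. All 8 CGs of Insig2, and all 4 of Nr1h3 (the liver X receptor alpha gene, 7.09 ± 1.72%) and of Lpin2, lay within 1 kb of a start in RefSeq, so that their low bodies depend on which start is used. Mlxipl, which encodes the carbohydrate-responsive factor ChREBP, stood at 86.2 ± 3.9% over 4 body CGs.

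Transport genes had bodies at 65.2 ± 2.41% over 41 CGs. Abca1, which exports cholesterol to lipid-poor apolipoprotein, had its 1 body CG at 94.2 ± 3.1% and its promoter at 5.92 ± 5.42%. Scarb1, the receptor that takes cholesterol from high-density lipoprotein, had 3 promoter CGs at 39.8 ± 4.4%, with mice between 34.1 and 47.4%. Those 3 CGs do not stand for the whole promoter. Where 10 reads were asked of the female parents alone, 31 promoter CGs averaged 7.24% in the B6 female and 8.70% in the DBA female. Among the 3 CGs the level was higher farther from the start, with 15.4% at 391 bases upstream, 38.4% at 415 and 65.6% at 432. The CG at 65.6% is the one in an MspI site, so for it distance and site cannot be told apart. Its 29 body CGs averaged 62.6 ± 3.1%, and the 10 of hepatic lipase (Lipc) averaged 74.0 ± 2.4%.

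Abcg5 and Abcg8, neighbours that encode the subunits of the sterol exporter to bile, had 1 CG at 10 reads in all 8 mice. It lies in an intron of Abcg5 and in the flank of Abcg8, at chr17:85071639, so that both genes share its values. The CG is itself in an MspI site, and neither gene had a CG outside such sites at that depth. The level was 20.3% and 15.6% in the B6 female and male, and 17.1% and 11.4% in the DBA pair. In the F1 it was 35.3% in the BXD female, 25% in the BXD male, 29.8% in the DXB female and 31.5% in the DXB male. All 4 F1 mice were above all 4 parents, and the F1 exceeded the mid-parent level by 14.3 ± 2.24 points (SE). The unadjusted limma p was 0.00404, and after Benjamini-Hochberg adjustment over all CGs the p was 0.483, so the difference did not pass.

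Promoter levels depended on whether a CG was itself in an MspI site. The 37 member promoter CGs within CCGG averaged 18.7 ± 5.22% and the 96 outside averaged 2.12 ± 0.228%. Over all genes 15195 promoter CGs within CCGG averaged 18.4 ± 5.0% and 45606 outside averaged 3.17 ± 0.354%, so the contrast was also present across the series. Inside the sites the B6 male (27.2%) and the DBA male (26.0%) were above the other 6 mice, which had 13.9 to 20.1%. Outside the sites the same males had 1.86% and 1.87%, within a range of 1.86 to 2.59% over the 8 mice. In bodies the member CGs inside the sites averaged 67.0% (92 CGs) and those outside 62.1% (71 CGs), where over all genes they averaged 71.7% and 49.9%. The part of the library preparation in this contrast was not tested.

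**Figure D2:**
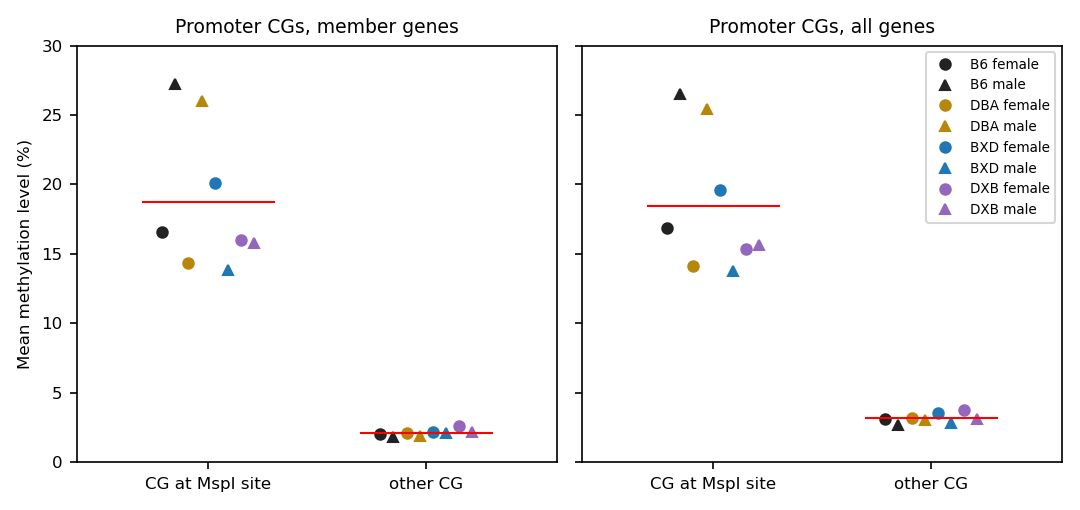
Mean methylation (percent) of promoter CGs at the MspI site and of other promoter CGs, for member genes (left) and all genes (right), with a point for each of the 8 mice and a red line for their mean. Member CGs at the site lie between 13.9 and 27.2%, highest in the B6 and DBA males, whereas the other CGs lie between 1.86 and 2.59%.

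In the Srebf1 fragment, the CG in the MspI site stood at 18.6% and its 3 neighbours at 0.164 to 0.949%. In the Fads1 fragment, the site stood at 11.5% and the others at 0 to 1.45%. The Mvk promoter had 2 site CGs at 13.3 and 18.8% and 3 other CGs at 0 to 0.595%. Without the site CGs, the promoters of Srebf2 (0.133%), Insig1 (0.150%), Elovl5 (0.176%), Acly (0.199%), Acaca (0.263%), Mvk (0.323%), Dgat1 (0.343%) and Lss (0.402%) were all below 0.5%. Fasn stood at 2.92%, with 18.2% in the DXB female and 0.742% over the other 7 mice. Acacb (14.7%), Scarb1 (26.9%) and Lpin1 (32.7%) stayed above 10%, on 1, 2 and 3 CGs.

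Sterol and fatty acid genes were set against each other within each mouse. Sterol bodies were higher by 24.6 ± 1.5 points (SD, n = 8), with 22.3 to 27.3 points over the 8 mice, all above 0. That difference rested on 5 sterol CGs, and with the minimum of 5 reads it was within the spread between mice. At the promoters the difference was 1.02 ± 1.99 points, with 5 mice above 0 and 3 below. It was 0.561 without the B6 male, and 2.49 ± 1.63 with summed counts, 2.94 ± 2.30 with any coding start and 2.26 ± 1.69 at 5 reads (SD). Without CGs in CCGG the promoter difference was −0.31 ± 0.74 (SD), with sterol promoters at 0.696 ± 0.283% (10 CGs) and fatty acid promoters at 1.01 ± 0.676% (29 CGs). It was −1.87 in the DXB female and −0.09 over the other 7 mice. As a mean over genes the promoter difference was −1.60 ± 1.94, with 6 mice below 0 and 2 above. The sign thus changed with these choices. The values 1.02, −0.31 and −1.60 each lay within their SD, whereas 2.49, 2.94 and 2.26 exceeded theirs. That SD is the spread between mice, and the difference was not tested. Both promoter levels outside CCGG also lay within the range of methylated CHH calls, 0.416 to 1.23%.

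**Figure D3:**
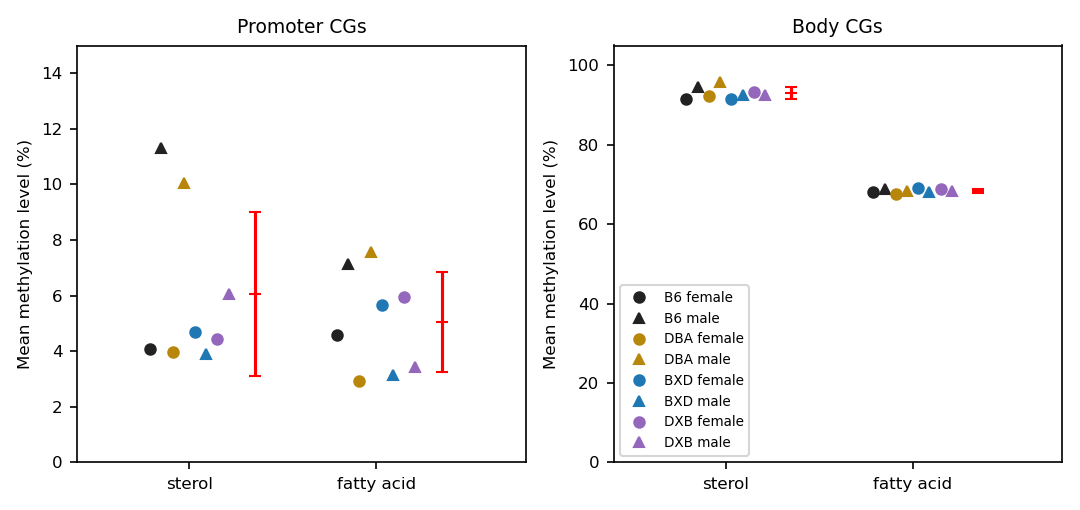
Mean methylation (percent) of sterol and fatty acid genes, promoters (left, axis to 15%) and bodies (right) apart, with a point for each of the 8 mice and red bars for the mean and SD. Sterol bodies lie above fatty acid bodies in all 8 mice by 22.3 to 27.3 points, and the promoter levels of both groups overlap.

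More CGs could be read where 10 reads were asked of the female parents alone. There 682 promoter CGs in 26 genes averaged 3.54% in the B6 female and 3.56% in the DBA female. The 1120 body CGs in 33 genes averaged 63.4% and 62.4%. The sterol bodies, now 70 CGs in 8 genes, stood at 81.2% and 79.8%, against 65.7% and 64.5% over 517 CGs of 9 fatty acid genes. Outside CCGG the sterol promoters stood at 0.610% and 0.367% (122 CGs) and those of fatty acid genes at 0.490% and 0.582% (218 CGs). The promoter of Abcg8 had no CG at the stricter depth. Here it had 5 CGs, at 52.3% in the B6 female and 72.7% in the DBA female. These levels were above the Lpin1 promoter at 35.1% and 34.4%. The Abcg8 5′ end used lies within the body of Abcg5. RefSeq gives that start and also a later one outside Abcg5. The Abcg8 level therefore describes the first start only, and the later start was not read apart. The genes missed by the stricter depth were also read. Isopentenyl-diphosphate isomerase (Idi1) had 7 promoter CGs at 1.09% in both mice. Squalene synthase (Fdft1) had 16 body CGs at 46.9% and 47.0%. The acyltransferase Gpam, which starts glycerolipid synthesis, had 3 promoter CGs at 10.6% and 11.3% and 4 body CGs at 51.7% and 52.1%.

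Strain was tested first between single mice, by the rule that each level lies outside the exact (Clopper-Pearson) 95% confidence interval of the other and the levels differ by more than 50 points. These intervals cover counting error only. With 10 reads in all 8 mice, 0 of the 331 member CGs were called between the females, against 0.356% of all CGs, and 1 between the males, against 0.325%. With 10 reads in the 2 mice compared, 11 of 2041 member CGs (0.539%) were called between the females, against 0.549% of all CGs, and 2 of 636 between the males, against 0.423%. Of the 11, 9 were higher in B6, a direction taken by 0.498% of all CGs, and 2 were higher in DBA, against 0.0507%. At 30 points 36 member CGs (1.76%) were called between the females, 28 of them higher in B6, against 1.6% of all CGs. The shares of members were near the background, so the calls are given as single sites. A sequence variant that removes the CG in DBA was not tested at any of them.

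The CG 1034 bases upstream of Lpin1 (chr12:16597610) was methylated in B6 mice and not in DBA mice. The B6 female had 64.1% (95% CI 55.1 to 72.3, 128 reads) and the DBA female 0% (0 to 1.92, 190 reads). The B6 male had 64.2% of 106 reads and the DBA male 0% of 5. The F1 had 23.6, 26.4, 36.4 and 29.2% in the BXD female, BXD male, DXB female and DXB male, all between the parents.

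In an intron of Lipc (chr9:70674792) the B6 female had 94.7% (86.9 to 98.5, 75 reads) and the DBA female 0.8% (0.0203 to 4.38, 125 reads). The B6 male had 48.6% of 37 reads, and the DBA male had no read there. The 4 F1 mice had 36.4 to 51.9%. The B6 male was thus among the F1 and not near the B6 female.

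The called CG of Acacb (chr5:114676772) lies in a coding exon. It was at 100% of 25 reads in the B6 female and 0% of 19 in the DBA female. The males had 100% of 7 reads and 0% of 165. The F1 had 30.8, 47.1, 41.7 and 44.4%.

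In an intron of Dgat2 both strands of the same CG were called (chr7:106304340 and chr7:106304341), with the higher level in DBA. The B6 female had 5.88% of 68 reads and 5.95% of 84. The DBA female had 71.4% of 21 reads and 60.8% of 97. The F1 lay between 20% and 55.6% on the 7 values with 10 reads, and the B6 male had 8.33% of 24 reads on the minus strand.

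Srebf2 had 3 called CGs within 69 bases across the end of a coding exon (chr15:82030233, 82030245 and 82030301). The B6 female had 83.3, 86.1 and 88.4% and the DBA female 28.9, 13.2 and 26.9%. The B6 male had 66.7, 88.9 and 68.5%, and the DBA male 71.4% of 7 reads, 80% of 5 and 63.1% of 65. At the only one of them with 10 reads in both males, 82030301, the males were 5.46 points apart where the females were 61.5 apart. The difference seen in the females was therefore not seen in the males at that CG.

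The remaining female calls were single sites. A coding exon CG of Fasn (chr11:120681618) had 69.0% of 29 reads in the B6 female and 18.2% of 11 in the DBA female, and 43.5, 54.8 and 52.4% in the 3 F1 mice that had 10 reads. The Idi1 CG in the downstream flank (chr13:8895427) had 93.5% of 31 reads and 37.6% of 149. A coding exon CG of Abcg8 (chr17:85096748) had 78.8% of 66 reads and 1.47% of 68, with 48.3% of 60 reads in the BXD male.

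**Figure D4:**
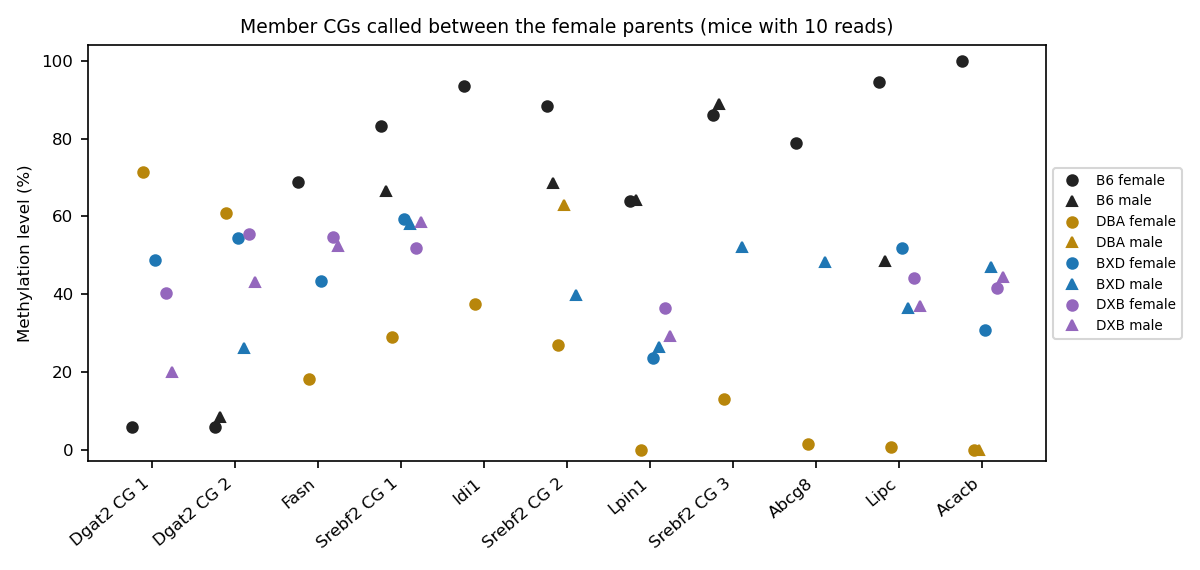
Methylation (percent) in each mouse with at least 10 reads at the 11 CGs called between the female parents, ordered by the B6 minus DBA difference, with several CGs of a gene numbered in that order. The F1 values, in blue and purple, fall between the B6 and DBA females at the 10 CGs that have them.

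F1 levels were read at those 11 CGs, of 8 genes, from mice that the rule did not use. An F1 value with 10 reads was present at 10 of the CGs, and 29 of 29 values lay between the female parents. The CGs were chosen for a gap of over 50 points between these same females, so lying between is largely fixed by the choice. Inbred males could lie between too, as both did at the Srebf2 CG 82030301 (68.5 and 63.1%). The B6 male did not at the Lpin1 CG (64.2%). The median difference of the F1 mean from the midpoint of the female parents alone was −0.69 points, with a range of −17.9 to 11.5. The lowest value, at the Srebf2 CG 82030301, rested on the BXD male only. At the 36 CGs called at 30 points, 83 of 91 F1 values lay between. These CGs include both strands of 1 site and neighbours on the same fragment, so they are not independent.

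Reads sorted by strain reached 10 at called CGs of Lpin1, Lipc, Dgat2 and Abcg8. At the Lpin1 CG, reads with the DBA allele were at 0% in the DBA female and in all 4 F1 mice, on 61, 90, 39 and 32 reads. Reads with the B6 allele were at 64.1 and 64.2% in the B6 female and male and at 52.5 to 75.7% in the F1. At the Lipc CG, B6 reads were at 85.2 to 94.7% and DBA reads at 0 to 7.69% wherever 10 were present. The Lipc result includes the library labelled B6 male, where 20 B6 reads were at 90% and 16 DBA reads at 0%. Of the 13 member genes with at least 10 sorted calls in that library, Lipc was the only one with over 10% DBA reads (44.4%). At the plus strand of the Dgat2 CG, DBA reads were at 71.4% in the DBA female, 80% in the BXD female and 70.8% in the DXB female, and B6 reads at 0 to 15.8%. At the Abcg8 CG called between the males (chr17:85096869), DBA reads were at 97.5 to 100%. B6 reads were at 45% in the B6 male, 80.8% in the B6 female and 70.8 to 88% in the F1, so the low level of the B6 male was not met in B6 reads of the other mice.

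**Figure D5:**
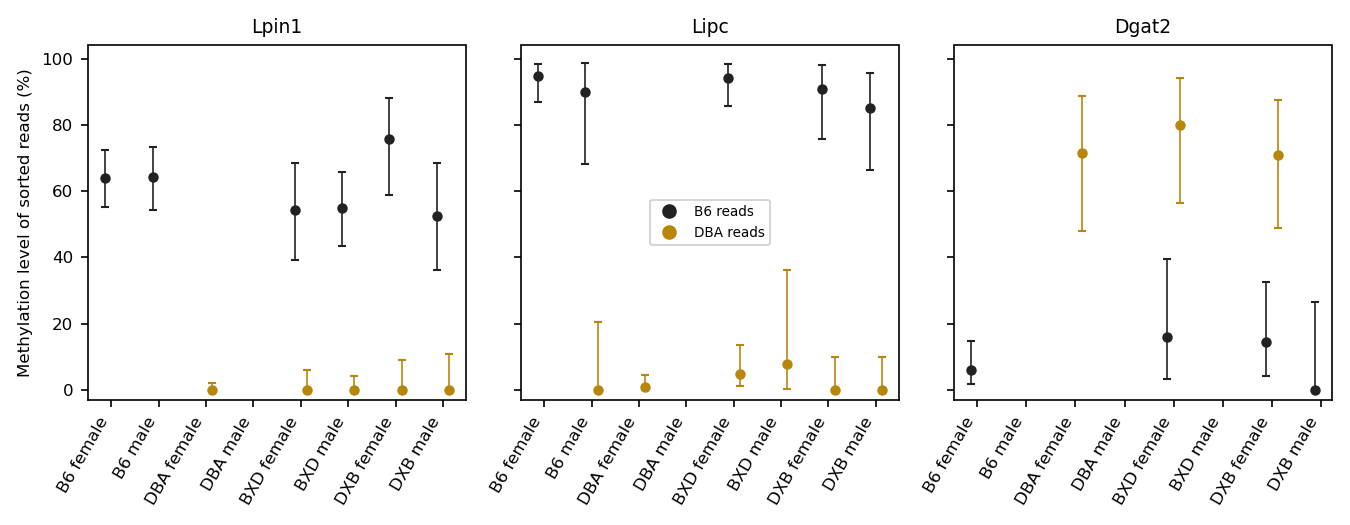
Methylation (percent) of reads that carry the B6 or the DBA allele, by mouse, at 1 called CG each of Lpin1, Lipc and Dgat2, with exact 95% confidence intervals, where at least 10 such reads were present. In the F1 mice with both kinds of read, the B6 and DBA reads stay apart, as in the parents.

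Between the males, the called CG of Scap lies in a coding exon (chr9:110283591). The fragment is shown because 6 of its CGs, in capitals, were measured in all 8 mice.

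Scap chr9:110283539-110283621: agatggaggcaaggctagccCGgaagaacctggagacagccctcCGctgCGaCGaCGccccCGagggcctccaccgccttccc

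The B6 male had 40% of 15 reads there and the DBA male 100% of 24. The B6 female had 71.1% (95% CI 54.1 to 84.6, 38 reads), the DBA female 90.9% (58.7 to 99.8, 11 reads) and the F1 79.2 to 95.3%. The parents of both sexes were lower in B6, and the levels of the strains did not overlap. The CG was chosen for the gap between the males, and the intervals of the females overlapped. Scap had 0 calls sorted by strain, so the DBA share of the B6 male library could not be read there. In limma the strain difference was −39.9 ± 11.6 points with a Benjamini-Hochberg adjusted p of 0.722. The other male call, in a coding exon of Abcg8 (chr17:85096869), had 43.5% of 62 reads in B6 and 98.9% of 95 in DBA, with 80.8% of 26 reads in the B6 female and 73.1 to 92.2% in the F1.

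With limma over the 8 mice, 0 of the 331 member CGs were called for strain, where 0.0763% of all CGs passed an adjusted p of 0.05 with means 20 points apart. For the F1 against the mid-parent level, for sex and for BXD against DXB, 0 member CGs and 0% of all CGs were called. At an unadjusted p under 0.05 there were 20 member CGs for strain (6.04%, against 6.26% of all CGs), 24 for the F1 (7.25% against 7.94%), 14 for sex (4.23% against 5.58%) and 11 for the cross (3.32% against 4.13%). The edgeR quasi-likelihood test on counts also called 0 members, where it called 0.356% of all CGs for strain, 0.329% for sex and 0.00509% for the cross. Its unadjusted p was under 0.05 at 8 members for strain (2.42%, against 3.04% of all CGs), 8 for sex (2.42% against 4.89%) and 6 for the cross (1.81% of both). None of the 11 CGs called between the females was among the 331, so these fits did not test them. With 10 reads in at least 6 mice, limma called 0 of 1112 members for strain, against 0.00732% of all CGs. An unadjusted p under 0.05 was met by 58 of the 1112 (5.22%, against 6.71% of all CGs). The Lpin1 CG was in that fit, with a strain difference of 64.8 ± 4.15 points (SE) and 1 DBA mouse at 10 reads. Called CGs of Lipc (82.3 ± 16.3), Srebf2 (82030233, 47.9 ± 9.45) and Dgat2 (minus strand, −47.3 ± 12.2) were also in it, again with 1 DBA mouse. The called Acacb CG, with 1 B6 mouse at 10 reads, had a fitted difference larger than percent levels allow.

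Over gene regions with at least 3 CGs, 0 of 36 member regions were called for strain, against 0.371% of all regions, and 0 for the F1, against 0%. An unadjusted p under 0.05 was met by 2 member regions for strain (5.56%, against 5.76% of all regions) and 1 for the F1 (2.78% against 7.26%), no more than in the series. The Scap body, whose 12 CGs include the capital CGs of its fragment shown above, had the smallest unadjusted p for strain. It stood at 89.7 and 85.5% in the B6 female and male and at 94.8 and 98.0% in the DBA female and male, a difference of −8.77 ± 2.42 points (limma adjusted p = 0.453). The Elovl5 body was the other region under 0.05 before adjustment, with 69.4 and 66.5% in B6 and 61.0 and 62.0% in DBA, a difference of 6.44 ± 1.89 points (limma adjusted p = 0.519). For the F1, the Mvk promoter differed from the mid-parent level by −3.24 ± 1.31 points (limma adjusted p = 0.681). That value rested on the CGs in MspI sites, since the other 3 Mvk CGs averaged 0% in all 4 parents and 0 to 1.59% in the F1. Parents and F1 averaged 7.28% and 6.21% over member promoters and 64.5% and 65.2% over bodies. Outside CCGG the order was the other way, with 1.86 to 2.12% in the 4 parents and 2.10 to 2.59% in the 4 F1 mice, ranges that overlap. Methylated CHH calls were 0.416 to 0.780% in the parents and 0.465 to 1.23% in the F1. The DXB female was the highest mouse in both measures. The part of that rate in the order outside CCGG was not tested.

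A list of other lipid pathway genes held 269 CGs at 10 reads in all 8 mice. Limma called 0 of them in any contrast, and an unadjusted p under 0.05 was met by 7 for strain (2.60%, against 6.26% of all CGs), 18 for the F1 (6.69% against 7.94%), 9 for sex (3.35% against 5.58%) and 9 for the cross (3.35% against 4.13%).

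RefSeq promoters (GRCm38.p6, 250 bases before to 50 after the start) were matched to 28 members with 43 promoters. They were searched on both strands for letters known from sterol-regulated genes. CCAAT, the box bound by NF-Y, was in 53.5% of them and in 37.4% of all 32851 promoters. CACGTG, an E-box, was in 18.6% and 7.15%. TCACNCCAC, a sterol regulatory element, was in 4.65%, those of Hmgcs1 and Mlxipl, and in 1.24%. Member promoters held a median of 17 CGs against 7 in all promoters, and 74.4% of them held CCGG against 52.8%. A match is a description of the sequence and not a measured binding site.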

How the data were processed

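Per the labels and the methods, the authors digested liver DNA with MspI, sequenced RRBS libraries, aligned reads to mm9 with BS Seeker, kept unique hits and sorted reads by strain with variants that they called from the bisulfite reads. They deposited, per cytosine and strain class, unmethylated and methylated read counts and the methylated fraction. The deposited tables of the authors' comparisons, with 12 per-mouse columns, were not used. Counts were summed over strain classes, and CGs with 10 reads were kept. Precision was set by depth, as given in the report. Levels were means over CGs, with promoters within 1 kb of the 5′ end in GENCODE M1. limma 3.58.1 was fitted to percent levels with 4 groups and sex as terms, and p-values were adjusted over all CGs or regions by Benjamini-Hochberg. edgeR 4.0.16 was fitted to counts as an alternative. Both were tested on simulated data of 30000 CGs, of which 200 differed by 70 points between strains: limma called 27 of them and edgeR 199. The labels do not say that mice were of separate litters. The members and lists were chosen with earlier results of these data known. Genes named were those with a called CG, the lowest and highest body and highest promoter of each group, promoters above 10%, a fixed list (Fasn, Scd1, Srebf1, Srebf2, Hmgcs1, Insig1, Abcg5 with Abcg8, Fads1 with Fads2) and members without a CG at 10 reads; other members were named after their values were seen, for their roles. Alternatives covered read minimum, promoter width and start, summed counts, leaving out mice, tool and threshold. Python 3.11.15 and R 4.3.3 were used.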

Additional observations from a re-analysis of the deposited data

Results flagged for a closer look

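A mouse was picked out where its gap to the nearest of the 4 mice of its sex exceeded Dixon's limit. 98 sets of values were examined, and chance gives about 1 in 20. Acaca, the acetyl-CoA carboxylase of the cytosol, had a promoter level of 2.22% in the B6 male, against 0 to 0.371% in the other males. The Acly body was at 86.6% in the DBA female, against 90.7 to 91.3% in the other females. The Fads1 body was at 5.85% in the DBA female, against 12 to 12.9%. The Fasn promoter was at 21.2% in the DXB female, against 5.56 to 7.69%. The Lpin2 body was at 3.04% in the BXD male, against 6.47 to 7.13% in the other males. The Scap body was at 89.7% in the B6 female, against 94.0 to 94.8% in the other females. The Srebf2 promoter was at 3.01% in the BXD female, against 0.777 to 1.14%.

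One CG in the downstream flank of Fdps (farnesyl diphosphate synthase), at chr3:88893285 and inside the gene Rusc1, had differences of opposite sign in the sexes. The B6 minus DBA difference was 30.1 points in females and −14.7 in males. The difference between the sexes was not tested, with 1 mouse per strain and sex.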

How the results depend on the processing

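Every limma fit, and edgeR for strain, sex and cross, called 0 members. This says nothing of stability where 0 of all CGs or regions were called, as in each limma CG fit for F1, sex and cross, the limma CG fits for strain with a mouse left out or with a trend, and most region fits for F1. Female calls were 1 at 30 points (0.302%, against 1.23% of all CGs) and 11 with 10 reads in the 2 mice. Male calls were 3 at 30 points (0.906% against 1.38%), 0 at 20 reads (against 0.277%) and 2 with 10 reads in the 2 mice. The promoter level of 6.74% became 9.24% with summed counts, 9.26% as a mean over genes, 8.11% with any coding start, 4.35% within 500 bases, 9.62% at 20 reads and 2.12% without CGs in CCGG. The body level of 64.9% became 65.8% over genes, 72.1% with any coding start, 61.3% at 500 bases, 67.9% at 20 reads, 65.9% at 5 reads, 69.1% with RefSeq starts and 62.1% without CGs in CCGG. The sterol minus fatty acid promoter difference of 1.02 turned to −1.60 over genes and −0.31 without CGs in CCGG (−0.0894 without the DXB female as well), and was 3.66 at 500 bases and 3.43 at 20 reads. The body difference of 24.6 was 26.3 over genes, 30.1 at 500 bases, 32.9 at 20 reads, 2.13 at 5 reads and 29.6 with RefSeq starts. Apart from the alternative's own CGs, the cause was not tested. RefSeq starts, CGs in CCGG left out with or without the DXB female, 10 reads in at least 6 mice and edgeR without a limit on the difference were chosen after seeing the data. No paired analysis was possible because the labels give no replicate numbers and name no shared litter or batch. The paper calls the inbred mice parents of the F1 and compares parent-child pairs, whereas the fits took all 8 mice as independent. Mice were numbered by sex, which is already a term of the fits. Depth of 5 to 15 reads in the males limits the Lpin1, Acacb and Scap sites.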
